A study of Mus musculus with 12 samples.

Results

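Gene expression was compared in the hippocampus at postnatal day 14 (P14) between mice lacking exon 7 of Auts2 in the neural lineage and floxed controls. Members were chosen by their labels, as all libraries of P14 hippocampus, which gave 6 of the 12 libraries in the series. The 3 knockouts carry Nes-cre, the Jackson Laboratory transgene Tg(Nes-cre)1Kln on a B6 background, with Cre under nestin regulatory sequence that is active in neural progenitors and so in the neurons and glia they make, and are labelled homozygous for the deletion (nes-cre_auts2-ex7koko). The 3 controls are labelled auts2-ex7-fl-het. They carry 1 floxed allele (Auts2tm1.1Dare), which the knockouts also started from, and the labels do not say whether they carry Nes-cre. All 6 animals are male, each library is 1 mouse, and the controls are described as littermates of crosses between Cre and floxed mice. Of the knockouts, 1 (replicate 3) has a mouse number within the run of the controls' numbers, and the other 2 do not. The other 6 libraries, P0 forebrain with another Cre line, enter no result here.

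AUTS2 is a neuronal protein tied to neurodevelopmental disorders. In the nucleus it joins a variant Polycomb repressive complex (PRC1) and, with the kinase CK2 and p300, is associated with active transcription, and in the cytoplasm it acts on Rac1 and the actin cytoskeleton. The hippocampus is a folded strip of cortex in which granule neurons of the dentate gyrus excite CA3 pyramidal neurons through mossy fibres, CA3 excites CA1, and CA1 projects to the subiculum. Dentate granule neurons are still being born and maturing at this age. Cortex, striatum, thalamus and choroid plexus border the tissue, so genes that mark them were followed beside the hippocampal regions.

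Total counts per library ranged from 16830720 to 23340621, and 24919 to 26338 genes had at least 1 count. The labelled tissue held its defining markers, with the summed level of 14 CA1 pyramidal markers between 1525 and 1747 CPM (counts scaled to the same library total) in every library. The controls were more spread out than the knockouts. The first principal component of the 1000 most variable genes held 36.4% of the variance. On it control replicates 1, 2 and 3 lay at 25.3, 11.1 and -2.87, and the knockouts at -12.68 to -10.24. Control replicate 3 was thus the control nearest the knockouts. On the second component (21.3%) it lay at -20.6, against 8.25 and -6.25 for the other controls and 1.95 to 8.34 for the knockouts. Choroid plexus markers differed most among the controls, with summed levels of 329, 1337 and 3288 CPM in control replicates 1, 2 and 3 and of 1817, 2532 and 1715 CPM in the knockouts.

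The knockouts differed from the controls in 342 of 17208 genes at an edgeR adjusted p below 0.05, which is 1.99%. Counts of called list members below are to be read beside this share, unless another fit is named. The 209 genes that rose are 1.21% of those tested and the 133 that fell 0.773%. Groups did not overlap for 3461 genes (20.1%), and 2622 had an unadjusted p under 0.05. The median log2 fold change over all tested genes was -0.01. Among called genes the median was 0.56 for those higher and -0.48 for those lower, so most calls were of moderate size. Rises stood more often at the head of the ranking by p, with 36 of the first 50 and 72 of the first 100 genes. Of the 342 genes, 311 are protein coding. Called genes were spread over the autosomes, at 0.407% to 2.93% of the tested genes on each. Leaving out 1 library changed the count by over 1.5 times in each case. It was 104, 187 and 191 without knockout replicates 1, 2 and 3, and 175 and 118 without control replicates 1 and 2. Without control replicate 3 it was 1808 of 17491 genes (10.3%), which included 341 of the 342. In all 6 of these fits 82 genes kept their call, and 114 kept it in at most 1. Adjusted p-values come from a test that sets the difference between groups against the spread between these individual mice.

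Auts2, the targeted gene, lies at chr5:131437333-132543344 (GRCm38, minus strand). Its level was 87.6, 72.4 and 70.7 CPM in the knockouts and 89.7, 91.6 and 103 CPM in the controls. The knockouts were lower without overlap, but knockout replicate 1 lay just below the lowest control. This is a log2 fold change of -0.30 (SE 0.09, edgeR adjusted p 0.111), and a two-sided exact permutation test gave p 0.1, the smallest that 3 against 3 allows. Gene-level counts sum every isoform, so neither exon 7 nor the long isoform is measured by them. The paralogs Fbrs (0.19, edgeR adjusted p 0.350) and Fbrsl1 (0.16, edgeR adjusted p 0.355), whose proteins can take the place of AUTS2 in PRC1, did not pass. In the list of 25 AUTS2 and PRC1 genes 1 was called (4.0%, against 1.99% of all genes). It was Bmi1, a subunit of canonical PRC1, at 44.4, 46.3 and 45.7 CPM against 59.6, 60.6 and 54.4 CPM in controls (log2 fold change -0.36, edgeR adjusted p 0.0255). That call was kept in 1 of the 6 fits without 1 library. The list's median was -0.03. Of 39 genes of Rac1 and Cdc42 signalling 1 was called (2.56%), the Rac exchange factor Tiam2 (0.40, edgeR adjusted p 0.0356, kept in 2 of the 6 fits), with a median of 0.01. Nes, whose regulatory sequence drives the Cre, did not pass (-0.21, edgeR adjusted p 0.415).

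Dentate granule neuron genes were lower in the knockouts. Of 20 markers tested 10 fell and none rose, with a median log2 fold change of -0.43 against -0.01 over all genes. Their summed level was 1297, 1172 and 1314 CPM in the knockouts and 1424, 1505 and 1427 CPM in the controls. All knockouts lay below all controls. In bulk tissue, fewer cells of a type and less RNA per cell cannot be told apart. Prox1, the homeobox factor that sets and keeps granule neuron identity, was at 109, 91.2 and 116 CPM in the knockouts and 158, 187 and 189 CPM in the controls. The groups were well apart, and Prox1 fell by 0.76 on the log2 scale (SE 0.10, edgeR adjusted p 0.00111). C1ql2, a secreted C1q-like protein of mossy fibre synapses, was at 18.6, 18.6 and 18.5 CPM against 36.1, 38.8 and 28.4 CPM. The knockouts were nearly identical, below every control (log2 fold change -0.89, edgeR adjusted p 0.000716). Dsp, the desmosome protein desmoplakin, was at 21.7, 17.8 and 17.0 CPM against 34.4, 41.9 and 31.5 CPM (log2 fold change -0.93, edgeR adjusted p 0.00131).

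The other 7 called granule markers had smaller changes or lower levels. Rfx3, a factor of ciliary genes, fell by 0.55 and Stxbp6 (amisyn, which binds SNARE proteins) by 0.52 on the log2 scale, with edgeR adjusted p of 0.00272 and 0.00341. Tdo2, tryptophan dioxygenase, fell by 0.90 at 3.71 to 4.87 CPM in the knockouts, and its control values ranged from 5.54 to 9.51 CPM. Lct (-0.63), the cation channel gene Trpc6 (-0.63), Cdh9 (-0.45) and the calcium buffer gene Calb1 (-0.41) also fell, with edgeR adjusted p from 0.0110 to 0.0355. Prox1, C1ql2, Dsp, Stxbp6 and Rfx3 kept their calls in all 6 fits without 1 library. Tdo2, Trpc6 and Calb1 kept theirs in 1. Between 5 and 13 of the 20 were called in those fits, and the median stayed between -0.48 and -0.42. Marcksl1, the member with the highest CPM, was not called (0.22, edgeR adjusted p 0.248).

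**Figure D1:**
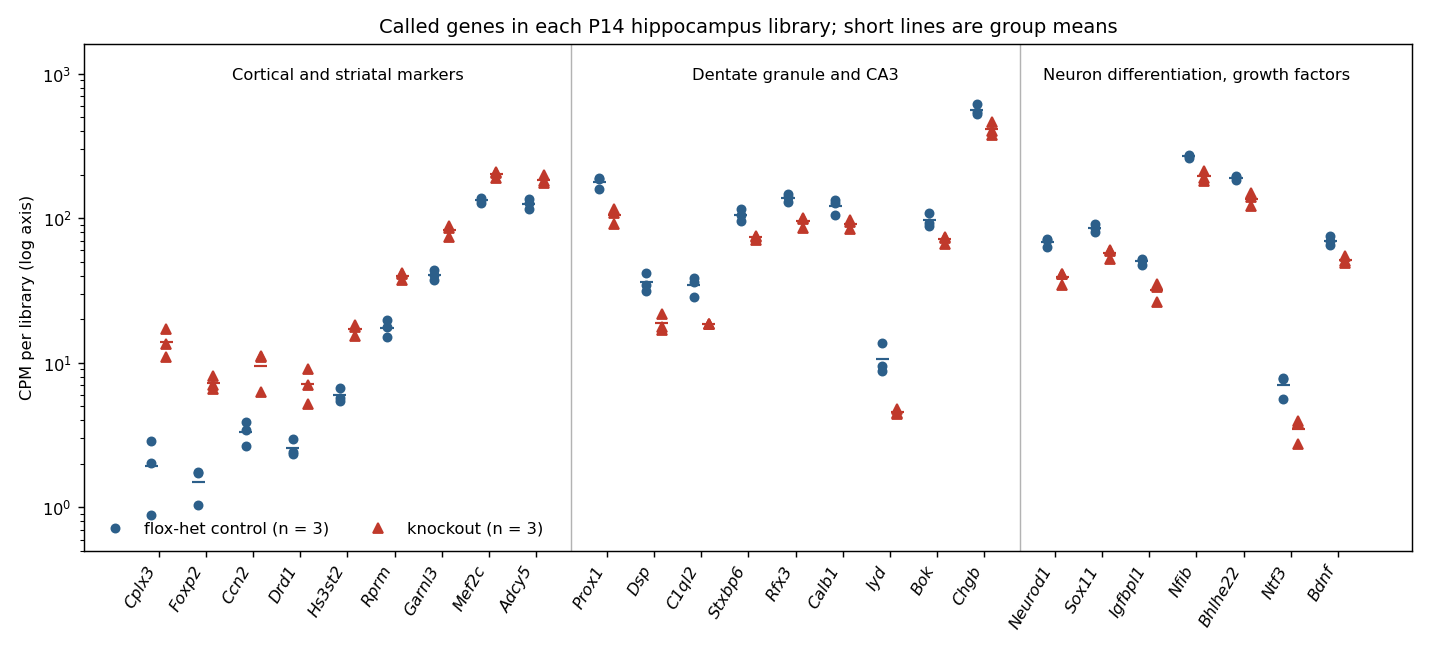
Level of 25 called genes in each P14 hippocampus library, in CPM on a log axis, grouped as cortical and striatal markers, dentate granule and CA3 markers, and genes of neuron differentiation and growth factors. Blue circles are the 3 flox-het controls, red triangles the 3 knockouts and short lines the group means. Knockouts sit above controls for every gene of the first group, such as Cplx3 (11.1 to 17.2 against 0.890 to 2.87 CPM), and below them for every gene of the other groups, such as Prox1 (91.2 to 116 against 158 to 189 CPM). The genes were picked from those called, so the shared direction within a group was set by that choice. Gap43 (log2 fold change 0.49) and Tbr1 (0.40), called rises of the immature neuron list, are not drawn.

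The bHLH factor NeuroD1, needed for granule neuron differentiation, fell together with Prox1. Neurod1 was at 41.1, 34.8 and 40.8 CPM in the knockouts and 71.9, 70.8 and 63.3 CPM in the controls. The lowest control was well above the highest knockout (log2 fold change -0.82, SE 0.09, edgeR adjusted p 0.000250). Promoter windows of both genes are shown, since both factors mark the same neurons and fell together. Each is the 250 bases before a RefSeq start on GRCm38.p6, minus strand, 5′ to 3′. Capitals mark an E-box of the type bound by NEUROD1 (CAGATGG on either strand) in the Prox1 window and the core of the NRF1 motif (GCGCATGC on either strand) in the Neurod1 window. NRF1 is a factor reported to bring AUTS2 to promoters. The Prox1 window lies at chr1:190170828-190171077 with the match beginning 179 bases before the start, and the Neurod1 window at chr2:79456637-79456886 with the match beginning 236 bases before it.
Prox1: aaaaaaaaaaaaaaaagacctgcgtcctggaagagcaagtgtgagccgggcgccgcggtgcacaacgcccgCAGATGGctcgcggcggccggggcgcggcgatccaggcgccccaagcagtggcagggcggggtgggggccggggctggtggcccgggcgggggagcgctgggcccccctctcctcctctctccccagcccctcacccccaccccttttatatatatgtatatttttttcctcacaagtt
Neurod1: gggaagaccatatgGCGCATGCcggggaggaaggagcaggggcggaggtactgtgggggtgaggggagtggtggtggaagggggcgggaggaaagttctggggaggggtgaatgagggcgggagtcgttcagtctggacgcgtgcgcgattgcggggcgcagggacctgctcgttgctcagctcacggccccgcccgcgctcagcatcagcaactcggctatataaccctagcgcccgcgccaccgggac
A second Prox1 window held no match to the letters searched. The motifs, chosen after the calls were known, were compared over 15448 windows of 12062 tested genes, of which some overlap. The E-box was in 3.26% of all windows, 6.64% of windows of genes that rose (14 of 211) and 3.05% of those that fell (4 of 131). NRF1's core was in 3.83%, 0.474% and 2.29% of these, and a forkhead motif (TGTTTAC on either strand) in 2.24%, 0.948% and 2.29%. These are matches of letters and show no binding.

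Pyramidal neuron regions differed from each other. Among 14 CA3 markers 4 fell and none rose (median -0.21), and their summed level was 1245, 1314 and 1166 CPM in the knockouts against 1536, 1438 and 1472 CPM. Iyd, an iodotyrosine deiodinase gene, was at 4.495, 4.42 and 4.78 CPM in the knockouts and 13.6, 8.83 and 9.44 CPM in the controls. Each knockout had close to the same level, below all controls (log2 fold change -1.22, edgeR adjusted p 0.00259). Chgb (chromogranin B of dense-core vesicles) fell by 0.44, Bok (a BCL2 family member) by 0.44 and Cpne4 (a copine) by 0.35 on the log2 scale, each kept in 2 of the 6 fits without 1 library. In those fits 1 to 5 of the CA3 markers were called, with 5 without control replicate 3, when 10.3% of all genes were called.

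The 14 CA1 markers had a median of -0.04, and their summed levels overlapped between groups. Mpped1, a member of the list, rose by 0.48 (edgeR adjusted p 0.00500) and kept its call in all 6 fits. Of 11 CA2 markers tested 7 were above 0 (median 0.06). Their summed level was 1366, 1275 and 1379 CPM in the knockouts against 1063, 1040 and 1224 CPM, with all knockouts above all controls. That gap rested largely on Adcy1, the most abundant member, with knockout and control means of 1047 and 830.4 CPM. Adcy1 itself was not called (0.335, edgeR adjusted p 0.0620). The 1 called CA2 marker, the neurotrophin gene Ntf3, fell. Mossy cell and hilus markers went both ways, with Cartpt (1.19) and Ajap1 (0.46) higher and Calb2 (-0.44) lower among 11. None of 8 subiculum markers was called by edgeR (median 0.33, with 6 above 0), where 3 had an unadjusted p under 0.05 and DESeq2 called 2. Fn1, the subiculum marker with the highest CPM, was at -0.06.

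Genes of deep cortical layers rose. Of 17 markers of layer 5 and 6 projection neurons 8 rose and none fell, with a median of 0.49, and their summed level was 1145, 1076 and 1188 CPM in the knockouts against 966, 988 and 939 CPM. All knockouts were above all controls. Foxp2, a forkhead factor of layer 6, was at 7.07, 8.11 and 6.57 CPM against 1.76, 1.72 and 1.04 CPM, a log2 fold change of 2.27 (SE 0.22, edgeR adjusted p 0.000105). Hs3st2, a heparan sulfate sulfotransferase, was at 15.4, 18.4 and 17.6 CPM against 5.42, 6.74 and 5.68 CPM (log2 fold change 1.53, edgeR adjusted p 4.44e-05). Control values of both genes lay in a narrow band far below the knockouts. Rprm, the p53 target reprimo, was at 40.9, 42.1 and 37.3 CPM against 19.6, 17.7 and 15.02 CPM (log2 fold change 1.202, edgeR adjusted p 4.06e-05). Garnl3, a gene with a GTPase-activating domain, was at 88.6, 73.9 and 85.2 CPM against 37.4, 40.3 and 43.8 CPM (log2 fold change 1.03, edgeR adjusted p 4.06e-05). These 4 genes kept their calls in all 6 fits without 1 library.

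The remaining 4 layer 5 and 6 genes rested more on single libraries. Col24a1, a fibrillar collagen, rose by 2.37, with 6.04, 4.94 and 1.97 CPM against 0.585, 0.627 and 1.29 CPM, so that knockout replicate 3 was close to control replicate 3. The neurotensin receptor gene Ntsr1 rose by 0.75, the synaptotagmin gene Syt6 by 0.68 and Fezf2, which specifies subcortical projection neurons, by 0.49, with edgeR adjusted p from 0.00918 to 0.0169. Col24a1, Syt6 and Fezf2 were called in 2 of the 6 fits and Ntsr1 in 4. Between 4 and 9 members were called in those fits, and the median stayed between 0.41 and 0.57. Crym, the member with the highest CPM, was at 0.20 (edgeR adjusted p 0.226).

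Subplate and layer 6b neurons are among the first-born neurons of the cortex and persist below layer 6. Of 14 of their markers 4 rose and none fell, although the median was only 0.11 and the summed levels overlapped (346 to 383 CPM in knockouts, 332 to 376 CPM in controls). Cplx3, a complexin that clamps and promotes vesicle fusion, was at 11.1, 17.2 and 13.5 CPM against 2.87, 2.04 and 0.890 CPM. Every knockout had more than any control, and the log2 fold change was 2.85 (SE 0.34, edgeR adjusted p 0.00543). Ccn2, a matricellular growth factor gene, was at 6.32, 11.2 and 10.9 CPM against 3.46, 3.92 and 2.67 CPM (log2 fold change 1.503, edgeR adjusted p 0.00427). Drd1, the D1 dopamine receptor gene, was at 5.15, 9.11 and 6.99 CPM against 2.34, 2.98 and 2.42 CPM (log2 fold change 1.46, edgeR adjusted p 0.00341). Cplx3, Ccn2 and Drd1 were called in all 6 fits without 1 library, and Trh (1.71), at 0.198 to 2.01 CPM, in 1. Hs3st4, the subplate marker with the highest CPM, was at 0.15 and not called. The window of 250 bases before the RefSeq start of Cplx3, the gene with the largest rise at an average log2 CPM of at least 1, lies at chr9:57606282-57606531 (GRCm38.p6, minus strand) and held none of the motifs searched. It is shown with no capitals for that reason.
Cplx3: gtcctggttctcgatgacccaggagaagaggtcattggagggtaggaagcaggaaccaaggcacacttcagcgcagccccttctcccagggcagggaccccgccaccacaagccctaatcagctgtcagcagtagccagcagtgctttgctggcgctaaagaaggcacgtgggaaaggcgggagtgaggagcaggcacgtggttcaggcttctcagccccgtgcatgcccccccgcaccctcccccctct

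Upper-layer cortical markers had a median of 0.13 over 14 genes, with 8 above 0, Mef2c among those that rose and Calb1 the 1 that fell. Their summed level was 774 to 827 CPM in the knockouts and 720.3 to 744 CPM in the controls, which do not overlap. That gap rested largely on Mef2c, the member with the highest CPM, with means of 201 and 133 CPM, and 6 members were below 0. Mef2c, an activity-regulated factor of excitatory neurons, was at 206, 190 and 208 CPM against 133.9, 137 and 128 CPM. Knockouts were above controls by more than the spread within either group (log2 fold change 0.60, SE 0.07, edgeR adjusted p 0.000524). Tbr1, the T-box factor of layer 6 and other early glutamatergic neurons, rose by 0.40 (edgeR adjusted p 0.0441) but kept its call in 1 of the 6 fits. Sox5, a factor of deep-layer neurons, rose by 0.36 (edgeR adjusted p 0.0470, kept in 1).

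**Figure D2:**
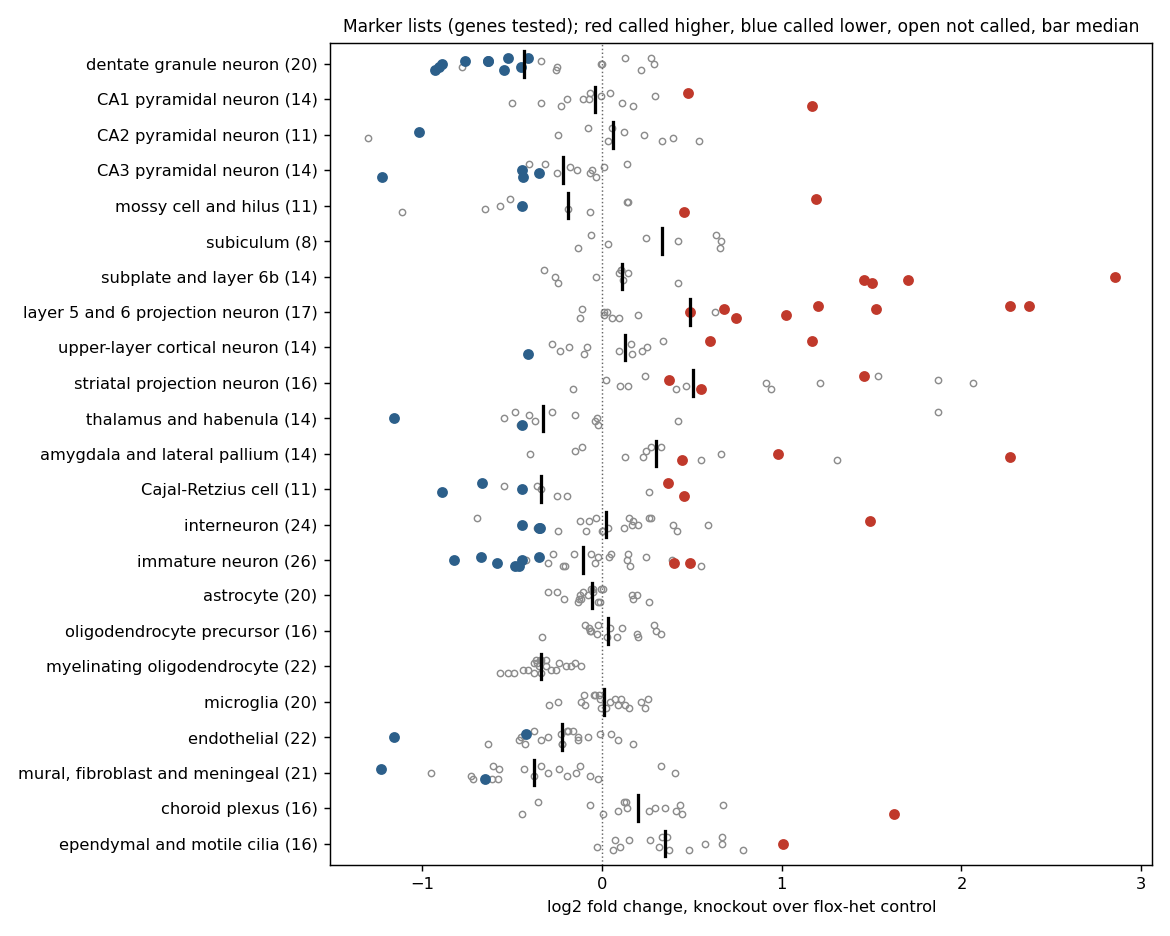
Log2 fold change, knockout over flox-het, of each tested member of 23 marker lists, with the number tested in brackets. Red points are called higher, blue points called lower and open points not called, and black bars are medians. The dentate granule list has 10 blue and no red points (median -0.43), the layer 5 and 6 list 8 red and no blue points (median 0.49), and the astrocyte, oligodendrocyte and microglia lists have no called gene.

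Striatal projection neuron markers were higher as a group. Of 16 there were 15 above 0, with a median of 0.51, and 3 rose and none fell. The summed level was 511, 606 and 484 CPM in the knockouts and 355.8, 389 and 403 CPM in the controls, with all knockouts above all controls. Besides Drd1, the called members were Adcy5, the main adenylyl cyclase of striatal neurons, and the forkhead factor gene Foxp1. Adcy5 was at 181, 199 and 175 CPM against 126, 117 and 136 CPM (log2 fold change 0.55, edgeR adjusted p 0.00234). Foxp1 rose by 0.38 (edgeR adjusted p 0.0161, kept in 2 of the 6 fits). Of the 14 amygdala and lateral pallium markers 3 rose and none fell (median 0.30). Beside Foxp2 these were Meis2, a homeobox gene, at 55.7, 68.9 and 56.2 CPM against 27.5, 33.8 and 30.4 CPM (log2 fold change 0.98, edgeR adjusted p 0.000234), and Cdh13, a cadherin anchored to the membrane by lipid (0.45, edgeR adjusted p 0.00355). Both kept their calls in all 6 fits. No member of the striatal, amygdala or layer 5 and 6 lists was at 0 in all libraries. The part that adjoining cortex, striatum or amygdala in the dissections has in these rises was not tested.

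Most thalamus and habenula markers went the other way. Of 14 tested 12 were below 0 (median -0.33), and Lef1 and Calb2, both also members of other lists, fell. Rora (-0.03), Ntng1 (-0.04) and Rgs16 (-0.02) were close to unchanged, and Six3 (1.87) and Slc17a6 (0.42) were above 0 but not called. Between 0 and 4 members were called in the 6 fits without 1 library. Lef1, a transcription factor of the Wnt pathway, was at 2.01, 2.34 and 2.27 CPM against 5.21, 5.43 and 4.15 CPM. Knockouts had less than any control (log2 fold change -1.16, edgeR adjusted p 0.00823). Among 8 hypothalamus markers that passed the filter 3 rose, Avp (vasopressin), Trh (thyrotropin-releasing hormone) and Nkx2-1. They were near the limit of detection, with knockout levels of 1.08 to 2.06, 1.43 to 2.01 and 1.55 to 2.95 CPM, and Kiss1 of the same list was at 0 in all libraries. Of these Trh and Nkx2-1 were called in 1 of the 6 fits and Avp in 5.

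**Figure D3:**
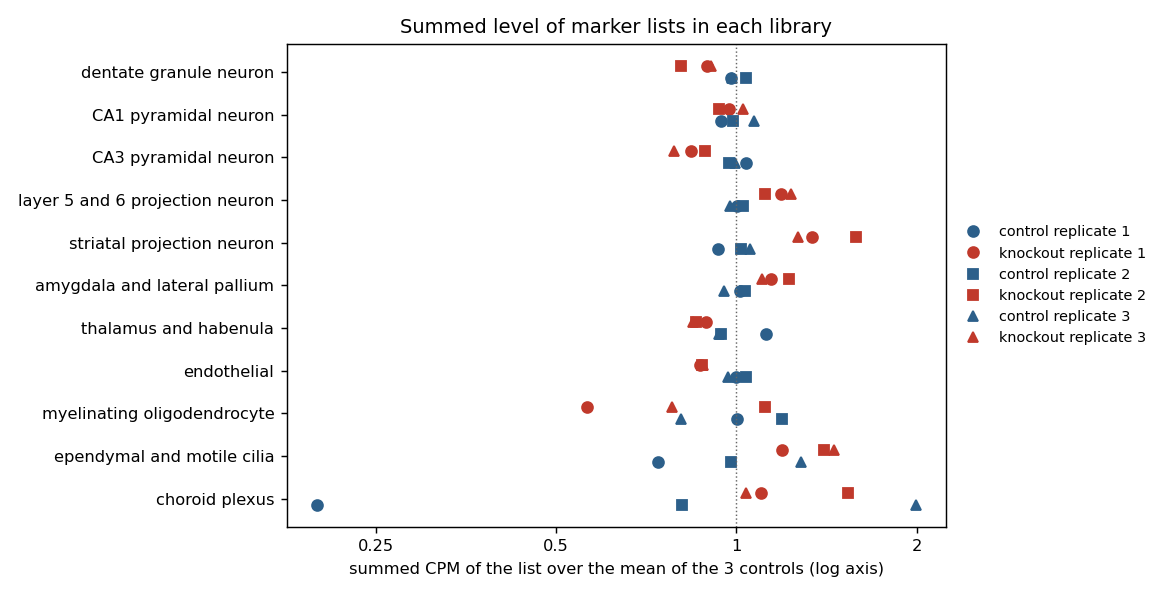
Summed CPM of 11 marker lists in each library, divided by the mean of the 3 controls, on a log axis. Blue symbols are controls and red symbols knockouts, with a circle, a square or a triangle for replicates 1, 2 and 3. Knockouts lie left of all controls for the dentate granule, CA3, thalamus and endothelial lists and right of them for the layer 5 and 6, striatal and amygdala lists, while the choroid plexus sums of the controls (329 to 3288 CPM) span those of the knockouts (1715 to 2532 CPM).

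Genes of young neurons fell more often than they rose. Of 26 immature neuron markers 7 fell and 2 rose, with a median of -0.11, and their summed levels overlapped. Besides Neurod1 the falls included Sox11, a SoxC factor of newborn neurons, at 59.8, 51.9 and 59.6 CPM against 79.8, 90.8 and 85.5 CPM. All knockouts were below all controls (log2 fold change -0.58, SE 0.08, edgeR adjusted p 0.00209). Igfbpl1, a secreted protein gene of young granule neurons, was at 35.2, 26.3 and 33.5 CPM against 51.9, 51.7 and 47.4 CPM (log2 fold change -0.67, edgeR adjusted p 0.00341). Nfib, a nuclear factor I gene, was at 190, 181 and 212.1 CPM against 259, 274 and 268 CPM (log2 fold change -0.46, edgeR adjusted p 0.00500), and its paralog Nfia fell by 0.35. Their relative Nfix was at 0.14 and not called. Bhlhe22 fell by 0.48 (edgeR adjusted p 0.00613), and Calb2, the calretinin of immature granule neurons and of some interneurons, by 0.44 (edgeR adjusted p 0.00927). Gap43, a growth cone protein gene, went up, at 389, 349 and 436 CPM against 271, 281 and 284 CPM (log2 fold change 0.49, edgeR adjusted p 0.00509), and the other rise was Tbr1. Neurod1, Sox11, Igfbpl1 and Gap43 kept their calls in all 6 fits, Nfib and Bhlhe22 in 5. Of 19 stem and intermediate progenitor markers 1 was called, Neurog2, a proneural factor of intermediate progenitors, which fell by 0.96 at 1.78 to 4.31 CPM (kept in 1 of the 6 fits).

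Cell cycle genes gave 1 call among 35 (2.86%, against 1.99% of all genes), with a median of -0.08. It was Cit, the citron kinase gene of cytokinesis that is also found in neurons, at 48.7, 52.2 and 43.1 CPM against 30.7, 31.8 and 35.1 CPM (log2 fold change 0.56, edgeR adjusted p 0.00500), and the other 34 did not pass in the same test. Cajal-Retzius markers were mostly lower, with 8 of 11 below 0 (median -0.34). Their summed level was 251 to 274 CPM in the knockouts and 295 to 335 CPM in the controls, without overlap. Nhlh2 (-0.89), Ndnf (-0.67) and Calb2 fell, and Cacna2d2 (0.46) and Car10 (0.37) rose. Nhlh2 and Ndnf kept their calls in all 6 fits without 1 library, Calb2 in 3, and Cacna2d2 and Car10 in 1. Reln, the reelin gene with the highest CPM of that list, was at -0.36 and not called (edgeR adjusted p 0.120). Among 24 interneuron markers Gad1 (-0.35), which makes GABA, the cannabinoid receptor gene Cnr1 (-0.34) and Calb2 fell and Nkx2-1 rose, with a median of 0.02. Gad1, Cnr1 and Nkx2-1 kept their calls in 1 of the 6 fits each. The summed level of the list was 1906 to 2010 CPM in the knockouts and 2015 to 2186 CPM in the controls, narrowly without overlap.

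Glial lists held no call. None of 20 astrocyte, 16 oligodendrocyte precursor, 22 myelinating oligodendrocyte, 20 microglia and 8 erythroid markers passed by edgeR, nor by DESeq2, and in that order 1, 4, 4, 3 and 1 had an unadjusted edgeR p under 0.05. The myelin list was below 0 for all 22 genes (median -0.34), yet its summed level was 3308, 6562 and 4589 CPM in the knockouts and 5889, 6985 and 4739 CPM in the controls, which overlap. Vascular lists lay mostly below 0. Of 22 endothelial markers 19 were below 0 (median -0.22), and the sums were 557 to 564 CPM in the knockouts and 620 to 664 CPM in the controls. Lef1 and Itm2a (-0.42) fell. Of 21 mural, fibroblast and meningeal markers 19 were below 0 (median -0.37), and Efemp1 (fibulin-3, a matrix protein) and Vtn (vitronectin, made by pericytes in brain) fell. Vtn was at 36.5, 28.6 and 38.2 CPM against 60.6, 50.7 and 50.2 CPM (log2 fold change -0.65, edgeR adjusted p 0.00892), and Efemp1 at 1.55, 2.21 and 1.97 CPM against 5.16, 3.55 and 4.74 CPM (log2 fold change -1.23, edgeR adjusted p 0.0126).

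Choroid plexus and ependyma line the ventricle beside the hippocampus. Of 16 choroid plexus markers 1 was called, Wfikkn2, a secreted inhibitor of growth factors of the myostatin type. It was at 13.02, 10.2 and 10.04 CPM in the knockouts and 2.23, 3.29 and 5.24 CPM in the controls (log2 fold change 1.62, edgeR adjusted p 0.00725). The controls of Wfikkn2 kept the order of their choroid plexus sums but the knockouts stayed above control replicate 3, whose sum was the highest of all. Ttr, transthyretin, was not called (0.43, edgeR adjusted p 0.906). Of 16 ependymal markers 15 were above 0 (median 0.35) and 1 rose, Ccdc153 (1.01, edgeR adjusted p 0.0110). Without control replicate 3, when 10.3% of all genes were called, 6 rose. Control replicate 3 had the highest ependymal sum of the controls, 90.5 CPM, against 52.1 and 69.0 CPM in the others and 84.1 to 102.5 CPM in the knockouts.

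Without control replicate 3, whose removal raised the share of all genes called from 1.99% to 10.3%, counts in the regional lists shifted. Each count below stands beside that share. The 20 dentate granule markers then had 12 falls and 1 rise (median -0.48), and the 17 layer 5 and 6 markers 8 rises and 1 fall (median 0.44). The 16 striatal markers had 3 rises and no fall (median 0.62), and the 14 subplate markers 4 rises and 1 fall. The 14 amygdala markers had 6 rises and 3 falls. In the CA2 list and in the mossy cell and hilus list, of 11 each, rises and falls were then equal, at 2 each. The 16 choroid plexus markers had 3 rises and a median of 1.197, against 1 rise with that control included. The 22 endothelial markers had 5 falls and the 90 nuclear genes of oxidative phosphorylation 18. The 20 astrocyte markers, with no call before, had 4 falls.

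At the presynaptic terminal 7 of 52 genes of vesicles and release rose and 3 fell (median 0.06). Among complexins Cplx3 rose, while Cplx1 (-0.13, edgeR adjusted p 0.449) and Cplx2 (0.13, edgeR adjusted p 0.378), the main complexins of forebrain neurons, did not pass. Cplx4 did not pass the filter on low counts. Some genes of the active zone rose. Rims1 (0.32), Rims3 (0.32) and Rims4 (0.38) encode proteins of the RIM family, and Unc13c (0.63), which primes vesicles, was at 51.5, 48.8 and 54.0 CPM against 30.6, 31.6 and 37.7 CPM (edgeR adjusted p 0.00263). The active zone scaffold genes Bsn (0.10, edgeR adjusted p 0.865) and Pclo (-0.23, edgeR adjusted p 0.382), named after their values were seen, did not pass. The SNARE gene Stx1a rose by 0.43 (edgeR adjusted p 0.00725). The falls were Stxbp6, Synpr (synaptoporin of mossy fibre vesicles, -0.44) and Slc17a8 (the vesicular glutamate transporter VGLUT3, -0.84). Rims1 and Rims3 kept their calls in 1 of the 6 fits without 1 library, Rims4 in 3 and Unc13c in all. Slc17a7, the vesicular transporter of most hippocampal glutamate neurons, was at 0.04 (edgeR adjusted p 0.857).

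Of 67 synaptic adhesion and scaffold genes 4 rose and 2 fell, with 42 above 0 (median 0.11). Their summed level was 10700 to 11150 CPM in the knockouts and 9600 to 10650 CPM in the controls, without overlap. Without control replicate 3, when 10.3% of all genes were called, there were 22 rises and 3 falls. Adgrl2, a latrophilin that binds teneurins and FLRT proteins, was at 85.9, 85.9 and 84.0 CPM against 48.3, 51.7 and 49.5 CPM. The spread within each group was small beside the gap (log2 fold change 0.77, SE 0.07, edgeR adjusted p 5.80e-05). Igsf21, a neurexin-binding protein of inhibitory synapses, rose by 0.74 (edgeR adjusted p 0.000468), and Nrxn2 (0.39) and Dlg4, which encodes PSD-95 (0.27), were called in 1 of the 6 fits each. The C1q-like genes C1ql2 and C1ql3 (-0.48) both fell. Cadherins held 4 rises and 1 fall among 21. Cdh22 was at 23.7, 24.5 and 20.0 CPM against 12.3, 11.1 and 9.19 CPM (log2 fold change 1.07, edgeR adjusted p 0.000524), Cdh4 rose by 0.90 and Cdh18 by 0.89, and with Cdh13 they stood against Cdh9. None of 52 clustered protocadherins was called by edgeR (median 0.02), where 5 had an unadjusted p under 0.05 and DESeq2 called 1.

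Receptor genes changed in single subunits. Of 39 glutamate receptor genes 3 rose and 1 fell (median 0.04). Grik3, a kainate receptor subunit, was at 89.4, 93.5 and 88.5 CPM against 34.6, 42.4 and 54.7 CPM, with the knockouts tightly grouped above all controls (log2 fold change 1.04, edgeR adjusted p 0.00586). Grm4 (0.70) and Gsg1l (0.70), an auxiliary subunit of AMPA receptors, rose in all 6 fits as well, and Grm2, an autoreceptor on mossy fibres, fell by 0.36 (kept in 1). Of 25 GABA and glycine receptor genes Gabra3 rose, at 80.9, 77.0 and 79.1 CPM against 51.8, 53.1 and 47.5 CPM (log2 fold change 0.64, edgeR adjusted p 0.000524), and Gabra2 (-0.48) and Kctd12 (-0.30) fell. The AMPA subunit Gria2 (-0.12) and the GABA receptor gene Gabbr1 (0.05), those with the highest CPM, did not pass.

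Neuropeptide genes and their receptors held 6 rises and 1 fall among 51 (median 0.07). Nxph3, a neurexophilin that binds neurexins and marks deep cortical layers, was at 19.1, 16.1 and 19.7 CPM against 8.40, 7.57 and 4.35 CPM (log2 fold change 1.44, edgeR adjusted p 0.00414). Cckbr, the cholecystokinin receptor of brain, was at 20.8, 20.4 and 20.1 CPM against 13.03, 10.6 and 10.5 CPM (log2 fold change 0.85, edgeR adjusted p 0.00134). Knockouts and controls did not overlap for either gene, and both were called in all 6 fits. Cartpt, Trh, Ntsr1 and the nociceptin receptor gene Oprl1 (0.39) also rose, and Rxfp3, a relaxin-3 receptor, fell by 0.81. Among 39 receptors for monoamines, acetylcholine and adenosine Drd1 and Adra1b (0.86) rose, and Cnr1 and the serotonin receptor gene Htr1a (-0.35) fell.

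Among ion channels, 5 of 78 potassium channel genes were called (6.41%, against 1.99% of all genes, median 0.06). Kcnc4, Kcnh3 and Kcnk9 rose by 0.41 to 0.42 and Kcnc2 (-0.45) and Kcnip2 (-0.32) fell. Atp2b4, a plasma membrane calcium pump, was at 163, 149 and 143 CPM against 74.9, 82.7 and 94.9 CPM (log2 fold change 0.85, SE 0.09, edgeR adjusted p 0.000234). It was the called rise with the smallest p among 42 genes of calcium binding and signalling, where Camk2d (0.46) also rose and Calb1 and Calb2 fell.

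**Figure D4:**
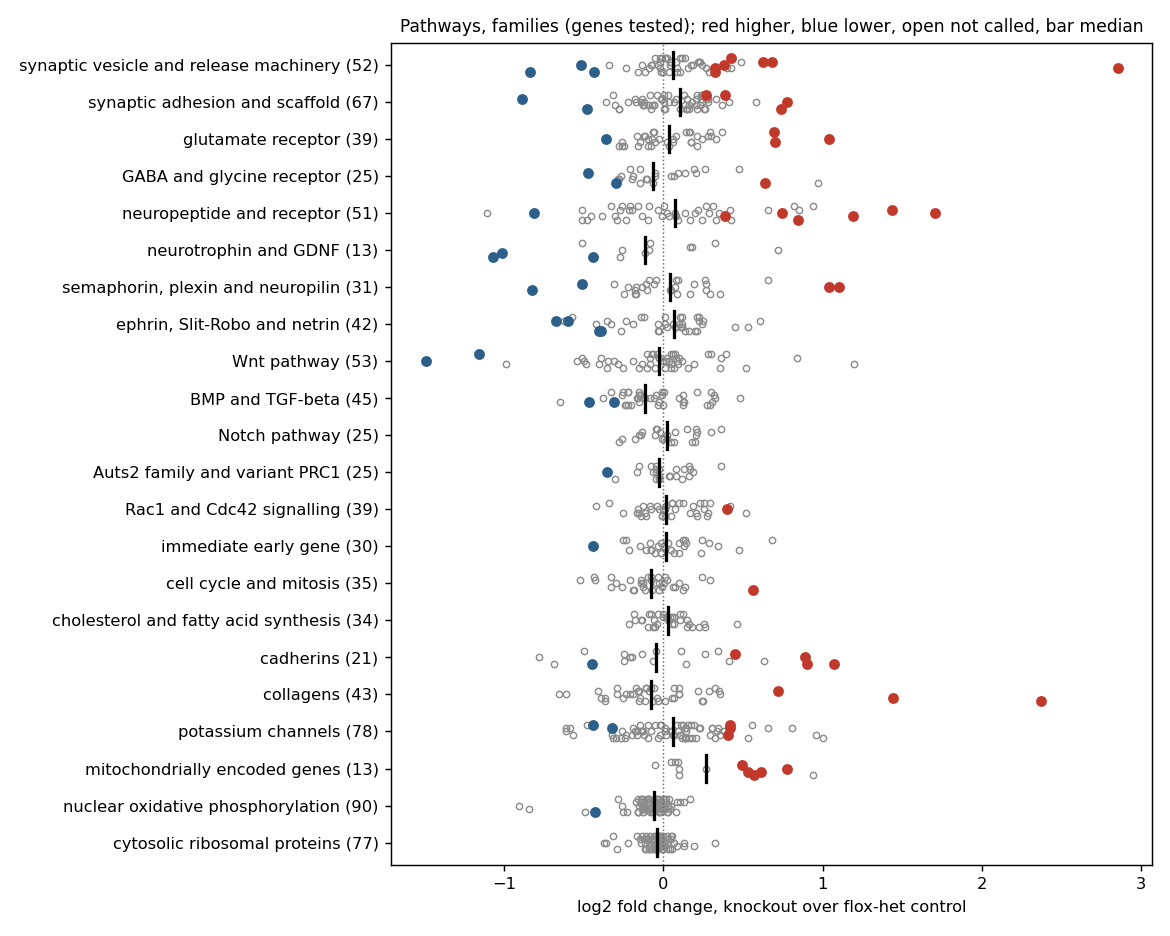
Log2 fold change, knockout over flox-het, of each tested member of 22 pathway lists and gene families, with the number tested in brackets. Red points are called higher, blue points called lower and open points not called, and black bars are medians. Medians lie between -0.12 and 0.11 except for the mitochondrially encoded genes (0.27), which have 5 red and no blue points.

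Among 13 tested genes of neurotrophin and GDNF signalling the falls included the ligand genes Ntf3 and Bdnf, and no receptor was called. The median of the list was -0.12, with 9 genes below 0 and 4 above, and its summed levels overlapped (1722 to 1838 CPM in knockouts, 1709 to 1868 CPM in controls). Ntf3, neurotrophin-3, was at 3.84, 2.73 and 3.95 CPM against 7.71, 7.89 and 5.58 CPM (log2 fold change -1.02, edgeR adjusted p 0.0161). Bdnf, brain-derived neurotrophic factor, was at 50.6, 49.0 and 54.8 CPM against 74.7, 70.0 and 65.1 CPM (log2 fold change -0.45, edgeR adjusted p 0.00918). Knockouts were below controls for both, and the call held in 3 of the 6 fits without 1 library for Bdnf and in 2 for Ntf3. Ntrk2, the BDNF receptor gene, was at 0.17 (edgeR adjusted p 0.266). Bdnf was also the only called gene among 30 immediate early genes (median 0.02), and 2 were called by DESeq2.

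Axon guidance genes changed in both directions. Among 31 semaphorin, plexin and neuropilin genes the repellents Sema3a and Sema3f rose and Sema3c and Sema5a fell. Sema3a was at 10.02, 11.2 and 10.2 CPM against 5.64, 3.76 and 5.24 CPM (log2 fold change 1.10, edgeR adjusted p 0.00294). Sema3c was at 67.4, 57.1 and 77.5 CPM against 123, 122 and 113 CPM (log2 fold change -0.83, edgeR adjusted p 0.000547). Groups did not overlap for either, and both were called in all 6 fits. Sema3f (1.04) kept its call in 2 and Sema5a (-0.51) in 5. The median of this list was 0.04. Of 42 ephrin, Slit-Robo and netrin genes 4 fell and none rose (median 0.07). Epha7, an ephrin-A receptor gene, was at 112, 104 and 126 CPM against 171, 173 and 173 CPM (log2 fold change -0.60, SE 0.08, edgeR adjusted p 0.00100), and the others were Epha3 (-0.41), Robo3 (-0.67) and the netrin receptor gene Unc5c (-0.39). All 4 falls are of receptors. Besides Col24a1, the collagen genes that rose among 43 were Col5a1, at 33.2, 24.5 and 17.6 CPM against 8.35, 9.35 and 10.1 CPM (log2 fold change 1.44, edgeR adjusted p 0.0127), and Col23a1 (0.72). The integrin genes Itga7 (-0.63) and Itga8 (-0.51) fell among 24.

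Other signalling pathways held few called genes, although 3 lists had shares above the 1.99% of all genes, each resting on 2 genes. In the Wnt pathway Lef1 and the ligand gene Wnt9b (-1.49, at 0.564 to 2.45 CPM, kept in 1 of the 6 fits) fell among 53 (3.77%). Of 45 BMP and TGF-beta genes the receptor gene Bmpr2 (-0.31) and the target gene Id3 (-0.47) fell (4.44%), with a median of -0.11. Iyd and Aldh1a1 (-0.35), a retinaldehyde dehydrogenase gene, fell among 27 genes of retinoic acid and thyroid hormone (7.41%). None of 25 Notch, 19 growth hormone and IGF or 34 cholesterol and fatty acid synthesis genes was called by edgeR. In that order 3, 3 and 5 had an unadjusted p under 0.05, and DESeq2 called 1 in the growth hormone list and none in the other 2. None of 77 cytosolic ribosomal protein genes was called by edgeR (median -0.04), where 5 had an unadjusted p under 0.05 and DESeq2 called 1, and 1 of 90 nuclear genes of oxidative phosphorylation fell (Ndufaf4, -0.43, median -0.06). Solute carriers held 1 rise, Slc7a3 (0.71), and 6 falls among 255, which is 2.75% called, near the 1.99% of all genes. In all 6 fits without 1 library none of these calls held throughout. The falls were Slc17a8, Slc7a11 (-0.47), Slc27a3 (-0.45), Slc4a7 (-0.33), Slc2a13 (-0.33) and Slc39a6 (-0.31).

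Mitochondrially encoded genes held 5 rises among 13 and no fall, with a median of 0.27. mt-Co2, cytochrome oxidase subunit II, was at 204, 212.1 and 189 CPM against 121, 142 and 133 CPM (log2 fold change 0.61, edgeR adjusted p 0.000879). mt-Atp6 (0.57), mt-Atp8 (0.78), mt-Co3 (0.50) and mt-Nd3 (0.53) rose as well. All 5 lie in 1 stretch of the mitochondrial genome, from base 7013 (start of mt-Co2) to 9806 (end of mt-Nd3). Outside it, mt-Co1 (0.09), mt-Cytb (0.10) and mt-Nd4 (-0.05) were not called, with edgeR adjusted p of 0.608, 0.527 and 0.823. The largest log2 fold change of the list, 0.94, was also outside the stretch, in a member that was not called. Of the 13 genes 12 were above 0, and DESeq2 called 7, all higher. The summed level was 45270 to 45580 CPM in the knockouts and 39580 to 44050 CPM in the controls, without overlap. Annotated pseudogenes in the nuclear genome, chosen after their values were seen, rose by like amounts. They were Gm28439, Gm28437, Gm10925, Gm28661 and Gm29216 on chromosome 1, with log2 fold changes from 0.41 to 0.59, and Gm13340 (0.68) and Gm13341 (0.68) on chromosome 2. Copies of mitochondrial DNA are known at such places, and how reads that match more than 1 place were counted is not given in the sources used here. The split of reads between the mitochondrial genes and these copies is therefore uncertain, and so are their single values.

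Several of the genes with the largest changes belong to none of these lists. Ipcef1, whose protein binds cytohesin exchange factors, was at 39.9, 45.7 and 47.3 CPM in the knockouts and 13.4, 15.4 and 11.5 CPM in the controls. The lowest knockout was far above the highest control (log2 fold change 1.72, SE 0.11, edgeR adjusted p 2.48e-06). Cobl, an actin nucleator that shapes dendrites, was at 17.8, 22.2 and 17.9 CPM against 7.71, 8.77 and 9.19 CPM (log2 fold change 1.17, edgeR adjusted p 0.000300). Vstm2l was at 78.0, 72.5 and 72.8 CPM against 45.5, 40.5 and 47.4 CPM (log2 fold change 0.74, edgeR adjusted p 0.000277). All of these were called in every fit without 1 library, as was Gm11549 (1.68, edgeR adjusted p 0.000468). Usp43, a deubiquitinase gene, rose by 1.33 (edgeR adjusted p 0.0125, kept in 4 of the 6 fits).

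Among the falls outside the lists, Vgll3, a cofactor of TEAD factors, was at 6.74, 3.90 and 5.02 CPM against 11.8, 11.7 and 12.8 CPM. Controls were nearly level and all above the knockouts (log2 fold change -1.21, edgeR adjusted p 0.00259, called in all 6 fits). Cpne9, a copine gene, was at 5.39, 5.38 and 6.99 CPM against 13.9, 10.5 and 11.3 CPM (log2 fold change -1.02, edgeR adjusted p 0.00377), while its relative Cpne5 rose by 0.48. Hpdl (-1.22), Crispld1 (-1.05), Pdgfrl (-1.04), Mfap4 (-1.01), a matrix protein gene, and Pi15 (-0.93) fell at 1.26 to 7.50 CPM in all libraries. Mfap4 kept its call in 4 of the 6 fits, Hpdl and Crispld1 in 2, and Pdgfrl and Pi15 in 1. In the Zfp family 3 zinc finger genes rose and none fell, or 0.843% of those tested, below the 1.99% of all genes. They were Zfp618 (0.71), Zfp462 (0.48) and Zfp771 (0.35). The forkhead family held Foxp2, Foxp1 and Foxo6 (0.43), all higher, among 24.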

How the data were processed

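RNA from 12 individual mice was sequenced, and the 6 P14 hippocampus libraries are used here. The authors deposited a file of raw, unnormalized counts for each library, with Ensembl gene identifiers. Per the labels' protocols, RNA was purified with Trizol and DNase I, and TruSeq libraries were read as 150 bp pairs on an Illumina HiSeq. The submitters' processing notes name STAR 2.7.5a, edgeR 3.12 and the GRCm38 (mm10) build, and the file names give annotation release 102. How multimapped reads were handled is not given in the sources used here. The unstranded counts were used, since the strand columns were equal (49.9% to 50.0% on the first strand). Symbols and coordinates for 55227 of 55487 identifiers came from GENCODE vM21, and promoter windows from RefSeq on GRCm38.p6.

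The test was edgeR 4.0.16 in R 4.3.3 (filterByExpr, TMM, estimateDisp, robust glmQLFit, glmQLFTest), with Benjamini-Hochberg adjustment over all genes tested and a threshold of 0.05. CPM use TMM-scaled library sizes. The SE comes from the coefficient and its F statistic. In simulated data with 200 of 17208 genes changed 2-fold, 81.5% were recovered and 4.68% of calls were false. Those counts were drawn independently at the fitted dispersions, without shifts shared across a whole library. In the data 58 of the 342 called genes had a log2 fold change of at least 1 in either direction. The simulated shares therefore need not hold for these libraries. Replicates were numbered in accession order, so the numbers pair no libraries. Libraries of 1 group differed by more than sampling noise (chi-square per degree of freedom 4.98 to 17.5). With 3 libraries a group, errors cover animals and counting together, and reads without molecular identifiers are not independent molecules.

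Lists and families, some of which share members, are described by counts and medians, without a test. The members and lists were chosen with earlier results of these data known. Genes named are Auts2, Fbrs, Fbrsl1, Nes and the complexins, the 15 largest rises, 15 largest falls and 15 smallest p among called genes whose average log2 CPM was 1 or more and whose groups do not overlap, and called members and the most abundant member of lists. Not every gene that met this rule is named, and some that met it are not reported here. Alternatives were RLE normalization, DESeq2 1.42.0, 2 other filters, non-robust fitting, a fit on all 12 libraries, offsets on gene length and GC content, a fold change limit, leaving out each library and using only the 4 libraries with consecutive mouse numbers. Exon 7 and isoforms were not analysed here.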

Additional observations from a re-analysis of the deposited data

How the results depend on the processing

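The count of 342 genes moved with the tool, the filter and each library. It was 814 without a filter on low counts (all 342 among them), 625 with an offset on gene length, 518 with DESeq2 (333 among them), 58 when a log2 fold change of 1 or more in either direction was required, and 104 to 1808 when 1 library was left out. RLE normalization gave 345, a filter of 10 counts in each library 348, fitting that is not robust 279, a fit that held all 12 libraries 333 and the GC offset 275. The 4 libraries with consecutive mouse numbers, 1 knockout against 3 controls with the lone knockout assumed to vary like the controls, gave 22, of which 13 were among the 342. In each of these 15 fits every one of the 342 genes that could be tested had the same sign as in the report. Auts2, at -0.30 and not called, passed the threshold without a filter (-0.30, edgeR adjusted p 0.0209) and with the gene length offset (-0.32, edgeR adjusted p 0.0331), and in the other fits its adjusted p lay between 0.0670 and 0.532. The cause of these shifts was not tested. No paired analysis was possible because the replicate numbers are only accession order. Depth limits genes near 1 CPM, such as Avp and Trh, most.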

Other observations

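Genes outside the lists and the naming rule, chosen after their values were seen, add further changes that edgeR called. Of acid-sensing ion channel genes, Asic2 (0.58, edgeR adjusted p 0.00144) and Asic1 (0.42, edgeR adjusted p 0.00760) rose. The diacylglycerol kinase genes Dgkh (-0.52, edgeR adjusted p 0.00315) and Dgkb (-0.43, edgeR adjusted p 0.00586), which end diacylglycerol signals, fell. Btbd3, which steers dendrite orientation in cortex, was at 239, 217 and 243 CPM in the knockouts and 344, 335 and 326 CPM in the controls (log2 fold change -0.53, edgeR adjusted p 0.00120). Cadm2, a synaptic adhesion gene, fell by 0.55 (edgeR adjusted p 0.00250), and Cdk5r2, an activator of the neuronal kinase CDK5, rose by 0.46 (edgeR adjusted p 0.00272). Tle3, a Groucho corepressor gene, was at 77.5, 73.6 and 68.9 CPM against 49.0, 47.5 and 49.0 CPM (log2 fold change 0.60, edgeR adjusted p 0.000733). Tox (1.02), an HMG-box factor gene, and Pbx3 (0.93), whose protein pairs with MEIS factors, rose as well.

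Among genes with low counts, Trbc2, a T cell receptor constant segment, was at 3.23, 3.51 and 2.69 CPM in the knockouts and 0.266, 0.366 and 0 CPM in the controls (edgeR adjusted p 0.000772). Of long noncoding RNAs, Gm36251 rose by 2.33 (edgeR adjusted p 0.00259) and Mir124-2hg, a host of the neuronal miR-124, by 0.57 (edgeR adjusted p 0.00975), and Mir17hg, the host of the miR-17 cluster, fell by 1.51 (edgeR adjusted p 0.0130).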
